A study of Mus musculus with 9 samples.

Results

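Genes that mark the cortical epithelium of the thymus were followed, 7 in all, across sorted thymic cells of reporter mice. They were Psmb11, Prss16, Ly75, Enpep, Tbata, Cd83 and Kitl, and their probe sets were taken by symbol. The 7 were picked with earlier results of these arrays known. All 7 were on the array, out of 18194 genes with a symbol of their own, and they were read by 13 of the 45101 probe sets. Of the 13, 0 carried a further symbol. The probe set with the highest mean log2 intensity over the 9 arrays stands for a gene, and the other probe sets of Tbata and Kitl are described after the members.

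RNA was profiled on 9 single-colour arrays, 3 in each of 3 groups named by the sample titles: ZsG plus cells, ZsG minus mTEC and ZsG minus cTEC. ZsG is ZsGreen, a green fluorescent protein, and mTEC and cTEC are the usual short forms for medullary and cortical thymic epithelial cells. The mice of every group were of the C57BL/6 background and 8 to 20 weeks old, and the reporter sat on a bacterial artificial chromosome at the start codon of Tslp, the gene of an epithelial cytokine. ZsG plus cells carried the reporter signal and the remaining groups lacked it, which asks how reporter-positive cells compare with both kinds of reporter-negative epithelium. The reporter is a transgene and not a change to the endogenous Tslp gene, so its signal is that of the construct. The sort markers, the number of mice per sample and whether ZsG plus cells came from cortex or medulla are not stated in the labels. Their cell type field says keratinocytes throughout, against the titles, which were followed. Whether the replicates are separate animals is not labelled either, so p-values reflect only how far these samples differ, a spread that may be technical.

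Cortical epithelial cells present peptides to immature thymocytes during positive selection, and they make those peptides with proteases that few other cells use. Psmb11 encodes the beta5t subunit, which replaces the usual beta5 subunits in the thymoproteasome and alters the peptides shown on class I molecules. Prss16 encodes the thymus-specific serine protease, which acts in the class II pathway. Medullary cells, by contrast, are known for Aire and for the display of tissue antigens.

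The 250 bases upstream of the start were read from the RefSeq promoter table (GRCm38.p6) for the 5 members it lists, namely Psmb11, Enpep, Kitl, Ly75 and Tbata. They were searched for ACGC on either strand, the core recognised by Foxn1, the master regulator of thymic epithelium; a match on the opposite strand reads GCGT, and both are in capitals below. Psmb11 and Enpep are shown because they had the widest separation between ZsG plus and ZsG minus cTEC arrays among the 5, and Tbata because no match was found there. The Psmb11 window is chr14:54625060-54625309 on the plus strand, the Enpep window chr3:129332750-129332999 on the minus strand and the Tbata window chr10:61171714-61171963 on the plus strand, all written 5′ to 3′ in the direction of the gene.
Psmb11: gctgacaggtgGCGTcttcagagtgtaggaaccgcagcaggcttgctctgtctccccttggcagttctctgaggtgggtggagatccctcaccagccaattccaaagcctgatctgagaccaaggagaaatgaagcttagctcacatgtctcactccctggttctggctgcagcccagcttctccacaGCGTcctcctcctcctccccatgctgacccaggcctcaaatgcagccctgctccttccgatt
Enpep: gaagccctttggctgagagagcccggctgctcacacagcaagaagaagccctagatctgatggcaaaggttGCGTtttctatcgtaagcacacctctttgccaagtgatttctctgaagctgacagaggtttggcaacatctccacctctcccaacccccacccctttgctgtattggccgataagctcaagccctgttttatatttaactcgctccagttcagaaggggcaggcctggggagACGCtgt
Tbata: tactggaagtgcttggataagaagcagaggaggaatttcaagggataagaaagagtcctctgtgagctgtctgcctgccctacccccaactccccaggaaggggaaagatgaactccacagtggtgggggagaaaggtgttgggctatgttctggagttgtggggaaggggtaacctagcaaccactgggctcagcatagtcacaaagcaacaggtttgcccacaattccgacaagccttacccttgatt
Psmb11 had 2 matches, both GCGT, which begin at positions -239 and -62 counted from the start. Enpep had 2 as well, a GCGT at -179 and an ACGC at -7. The windows of Kitl and Ly75 held 2 and 1, and that of Tbata held 0. Of 32851 promoters in the table, 49.8% held at least 1 match and 25.6% held at least 2, so that such matches were common. The motifs describe the letters only.

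ZsG plus arrays differed from the rest in their spread. Median intensity over all probe sets was 230 to 316 on ZsG plus arrays, 366 to 424 on ZsG minus mTEC arrays and 376 to 404 on ZsG minus cTEC arrays, while the trimmed mean of the deposited values was 1250 on every array. Pearson's r across genes, which are not independent replicates, ran from 0.614 to 0.687 within ZsG plus, from 0.837 to 0.849 within ZsG minus mTEC and from 0.852 to 0.886 within ZsG minus cTEC. The ratio of the 3′ to the 5′ Gapdh probe set, a sign of RNA degradation or short amplification products, was 6.71 to 10.6, 4.66 to 5.97 and 4.55 to 5.60 in that order of groups. The bacterial PheX and DapX control probe sets read 14.4 to 341 on ZsG plus arrays, 3.77 to 139 on ZsG minus mTEC arrays and 4.38 to 241 on ZsG minus cTEC arrays. The part of RNA quality in the results below was not tested. In bulk samples such as these, fewer cells of a type and less RNA per cell cannot be told apart.

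**Figure D1:**
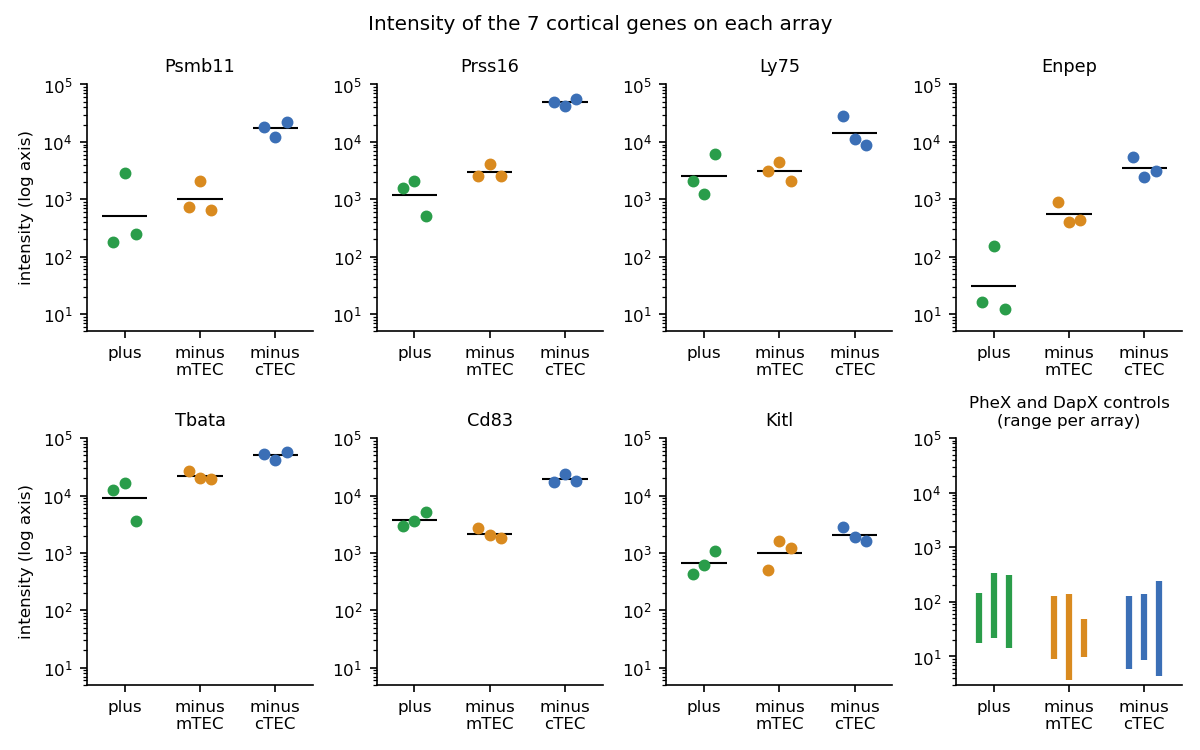
Intensity on each array (log axis) of the 7 cortical genes in ZsG plus, ZsG minus mTEC and ZsG minus cTEC, 3 arrays a group; points are arrays in replicate order and bars are geometric means. The last panel spans the lowest to highest PheX or DapX control on each array. The ZsG minus cTEC arrays lie above the ZsG plus arrays for all 7 genes, and the Enpep values of ZsG plus lie below the highest control of their array.

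The members were brightest in ZsG minus cTEC. Set against ZsG minus cTEC, 3 of the 7 were lower in ZsG plus at an adjusted p under 0.05 (Prss16, Enpep and Psmb11) and 2 were lower in ZsG minus mTEC (Prss16 and Cd83). Set against ZsG minus mTEC, 0 of the 7 passed in ZsG plus in either direction by limma, and 1 had an unadjusted p under 0.05. The background for these counts is the share of all 18194 genes called lower by the same limma fit, which was 1.14% for ZsG plus against ZsG minus cTEC, 0.0989% for ZsG minus mTEC against ZsG minus cTEC and 0.203% for ZsG plus against ZsG minus mTEC. The shares called higher were 0.599%, 0.528% and 0.0165%, and 0 members were called higher. The comparisons share groups, and their values are given side by side. Differences below are on the log2 scale of intensity with standard errors after ±, levels are geometric means over 3 arrays, and adjusted p-values are Benjamini-Hochberg values over all 18194 genes.

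Psmb11 had intensities of 183, 2855 and 245 on ZsG plus arrays, with 726, 2104 and 643 for ZsG minus mTEC and with 18505, 12244 and 22292 for ZsG minus cTEC. Both other groups lay wholly below the cTEC arrays and overlapped each other, and replicate 2 was the highest array of either. Of the ZsG plus values, 1 (replicate 3) was below the highest PheX or DapX control of its array. The level fell in ZsG plus, at 504 against 17157 in ZsG minus cTEC, a difference of -5.09 ± 1.03 (95% interval -7.40 to -2.77, adjusted p = 0.0452) or a 34.0-fold lower level. That call sat close to the threshold and was lost in 13 of 19 alternatives, with adjusted p-values up to 0.159, among them the fits without ZsG plus replicate 1 (0.0637) or replicate 3 (0.0762), without any single ZsG minus mTEC array (0.0759 to 0.0804) and without any single ZsG minus cTEC array (0.137 to 0.159). The difference was -5.33 to -4.90 without a ZsG minus cTEC array and -5.09 without a ZsG minus mTEC array. It was -4.36 without ZsG plus replicate 1, -6.34 without replicate 2 (adjusted p = 0.00944) and -4.57 without replicate 3, so the size of the fold rested on single ZsG plus arrays. In ZsG minus mTEC the level was 994 and the difference from ZsG minus cTEC was -4.11 ± 1.03 (adjusted p = 0.120). It did not pass as reported but passed in 4 of 19 alternatives (adjusted p 0.0113 to 0.321 over the 19, differences -4.65 to -3.79). ZsG plus and ZsG minus mTEC differed by -0.98 ± 1.03 (95% interval -3.29 to 1.33, adjusted p = 0.697), an interval that spans zero and leaves the order of these groups undetermined, and it was -0.25 without ZsG plus replicate 1 and -2.23 without replicate 2.

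Prss16, the serine protease of the class II pathway, read 1543, 2069 and 505 on ZsG plus arrays, with 2556, 4051 and 2513 for ZsG minus mTEC and with 49672, 41699 and 55909 for ZsG minus cTEC. The 3 groups did not overlap, with ZsG plus lowest and ZsG minus cTEC highest. Prss16 fell by 5.38 ± 0.64 in ZsG plus against ZsG minus cTEC (adjusted p = 0.0117), which is a 41.6-fold lower level. It also fell by 4.04 ± 0.64 in ZsG minus mTEC against ZsG minus cTEC (adjusted p = 0.0422). Between ZsG plus and ZsG minus mTEC the difference was -1.34 ± 0.64 (95% interval -2.79 to 0.11, adjusted p = 0.410), which did not pass. Without any single ZsG minus cTEC array the adjusted p in ZsG plus was 0.0560 to 0.0688, and without any single ZsG minus mTEC or ZsG minus cTEC array the adjusted p in ZsG minus mTEC was 0.105 to 0.160. In these fits the differences from ZsG minus cTEC were -5.49 to -5.28 in ZsG plus and -4.27 to -3.92 in ZsG minus mTEC. Leaving out 1 ZsG plus array kept the call in ZsG plus, at -5.58 (without replicate 1), -5.79 (without replicate 2) and -4.77 (without replicate 3), and without replicate 3 the difference from ZsG minus mTEC was -0.73.

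Enpep encodes glutamyl aminopeptidase, which cleaves acidic residues from the ends of peptides and is the antigen of a classical antibody to cortical epithelium in the mouse. Its intensities were 16.1, 156 and 12.2 on ZsG plus arrays, with 891, 407 and 442 for ZsG minus mTEC and with 5397, 2444 and 3087 for ZsG minus cTEC. The groups again did not overlap, with ZsG plus lowest. All 3 ZsG plus values were below the highest PheX or DapX control of their array, so they are bounds rather than levels. With each array floored at that control, Enpep was at least 13.9-fold lower in ZsG plus relative to ZsG minus cTEC (adjusted p = 0.00421). On the values as deposited the levels were 31.3 in ZsG plus and 3440 in ZsG minus cTEC, and the difference was -6.78 ± 0.95 (adjusted p = 0.0206).

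Against ZsG minus mTEC, whose level was 543, Enpep had a difference of -4.12 ± 0.95 in ZsG plus (95% interval -6.26 to -1.97, adjusted p = 0.131). It was the 1 member with an unadjusted p under 0.05 there, at 0.00179, where 10.2% of all genes were lower and 3.2% higher at that limit. Without replicate 2 of ZsG plus it passed, with a difference of -5.27 (adjusted p = 0.0197). Floored at the controls, the difference from ZsG minus mTEC was -1.14 ± 0.56 (adjusted p = 0.247). ZsG minus mTEC and ZsG minus cTEC differed by -2.66 ± 0.95 (adjusted p = 0.280). That difference passed in 2 of 19 alternatives (adjusted p 0.0209 to 0.577 over the 19, differences -3.02 to -2.34). Without any single ZsG minus cTEC array the ZsG plus call against that group was lost as well (adjusted p 0.0667 to 0.106, differences -7.03 to -6.45).

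Ly75 encodes DEC-205, an endocytic receptor of cortical epithelium and dendritic cells that is widely used to sort cTEC. Its values were 2078, 1256 and 6041 on ZsG plus arrays, with 3157, 4443 and 2070 for ZsG minus mTEC and with 28098, 11350 and 8984 for ZsG minus cTEC. Every ZsG minus cTEC array was above every array of the remaining groups, which overlapped each other. Its difference from ZsG minus cTEC was -2.50 ± 0.75 in ZsG plus (95% interval -4.19 to -0.81, adjusted p = 0.128) and -2.21 ± 0.75 in ZsG minus mTEC (95% interval -3.90 to -0.52, adjusted p = 0.252), and neither passed. ZsG plus and ZsG minus mTEC differed by -0.29 ± 0.75 (95% interval -1.99 to 1.40, adjusted p = 0.890). Without ZsG plus replicate 3 the differences of ZsG plus were -3.14 from ZsG minus cTEC and -0.93 from ZsG minus mTEC.

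Cd83 encodes a membrane protein that, on cortical epithelium, keeps class II molecules on the surface, and mature dendritic cells also carry it. It read 2910, 3600 and 5181 on ZsG plus arrays, with 2674, 2062 and 1807 for ZsG minus mTEC and with 17200, 23993 and 17910 for ZsG minus cTEC. The groups did not overlap, and Cd83 was the 1 member whose ZsG plus arrays all lay above the ZsG minus mTEC arrays. Cd83 fell in ZsG minus mTEC, at 2152 against 19479 in ZsG minus cTEC, a difference of -3.18 ± 0.52 (95% interval -4.34 to -2.01, adjusted p = 0.0447) or a 9.05-fold lower level. In ZsG plus, at 3786, the difference from ZsG minus cTEC was -2.36 ± 0.52 (95% interval -3.53 to -1.20, adjusted p = 0.0579), just outside the threshold. It passed in 6 of 19 alternatives (adjusted p 0.0167 to 0.198 over the 19, differences -2.59 to -1.91). Set against ZsG minus mTEC, ZsG plus had a difference of 0.82 ± 0.52 (95% interval -0.35 to 1.98, adjusted p = 0.518). The call in ZsG minus mTEC was lost without any single array of ZsG minus mTEC or ZsG minus cTEC (adjusted p 0.105 to 0.160, differences -3.34 to -3.03).

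Kitl encodes stem cell factor, the ligand of the receptor Kit on early thymocyte precursors. Its brightest probe set read 436, 614 and 1073 on ZsG plus arrays, with 502, 1630 and 1242 for ZsG minus mTEC and with 2850, 1895 and 1622 for ZsG minus cTEC. ZsG plus lay below ZsG minus cTEC without overlap, while the values of ZsG minus mTEC overlapped both other groups. The differences from ZsG minus cTEC were -1.64 ± 0.65 in ZsG plus (95% interval -3.10 to -0.18, adjusted p = 0.219) and -1.04 ± 0.65 in ZsG minus mTEC (95% interval -2.50 to 0.43, adjusted p = 0.611). Between ZsG plus and ZsG minus mTEC the difference was -0.61 ± 0.65 (adjusted p = 0.701).

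Tbata encodes a protein of thymic stroma and testis, named for thymus, brain and testis, that is linked to the control of thymic epithelial growth in the mouse. Its brightest probe set read 12503, 16641 and 3579 on ZsG plus arrays, with 27284, 20652 and 19791 for ZsG minus mTEC and with 53843, 41888 and 58210 for ZsG minus cTEC. The groups did not overlap, and ZsG plus replicate 3 lay apart from the other ZsG plus arrays on the low side. The difference from ZsG minus cTEC was -2.49 ± 0.66 in ZsG plus (adjusted p = 0.0975) and -1.19 ± 0.66 in ZsG minus mTEC (95% interval -2.68 to 0.30, adjusted p = 0.544). ZsG plus and ZsG minus mTEC differed by -1.30 ± 0.66 (95% interval -2.79 to 0.19, adjusted p = 0.431). Without ZsG plus replicate 3 that difference was -0.63, and the one from ZsG minus cTEC was -1.82.

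**Figure D2:**
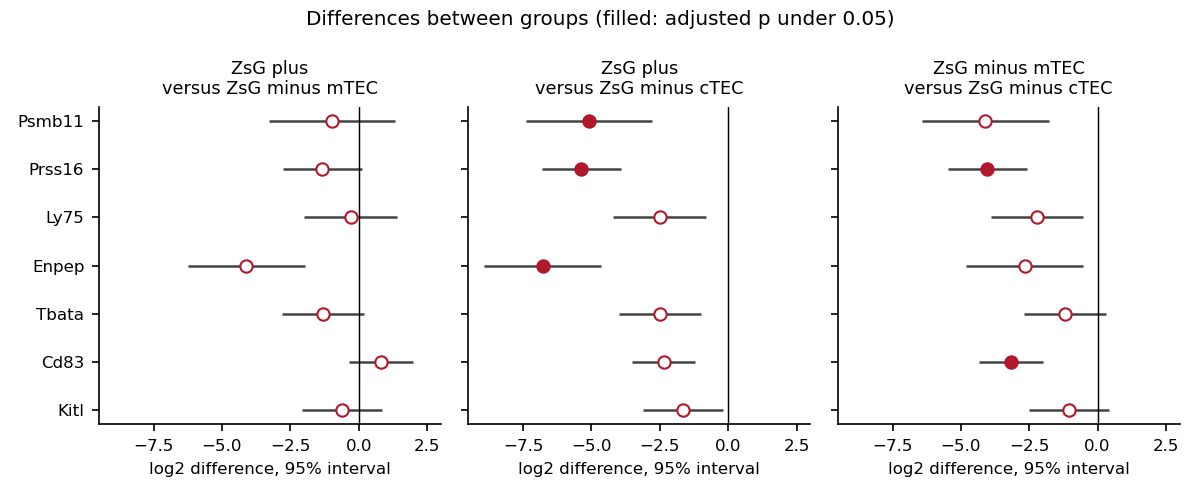
Log2 differences of the 7 genes with 95% intervals from limma, for ZsG plus versus ZsG minus mTEC, for ZsG plus versus ZsG minus cTEC and for the ZsG minus groups, mTEC versus cTEC. Filled points passed an adjusted p of 0.05: 0, 3 and 2 genes. All differences against ZsG minus cTEC are below zero, and against ZsG minus mTEC Cd83 alone of the 7 is above it.

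Counted over the 7 members, every difference in ZsG plus against ZsG minus cTEC was negative and the arrays of the 2 groups did not overlap in 7 of 7, where 13.4% of all genes were separated in that direction and 9.9% in the other. All 7 had an unadjusted p under 0.05, against 11.3% of all genes lower and 7.44% higher at that limit. In ZsG minus mTEC against ZsG minus cTEC, 7 of 7 were negative and 6 were separated on the low side, beside 11.8% of all genes (16.6% on the high side), and 5 had an unadjusted p under 0.05, beside 3.9% lower and 8.4% higher. In ZsG plus against ZsG minus mTEC, 6 of 7 were negative and 3 were separated on the low side (Prss16, Enpep and Tbata), beside 12.3% of all genes, while 1 was separated on the high side, beside 5.77%. The members' median differences were -2.50, -2.66 and -0.98 in these comparisons, beside medians of -0.14, 0.09 and -0.33 over all genes tested. Centring each array on its median moved the all-gene medians to 0.32, -0.08 and 0.30, and under it Ly75 and Kitl turned to 0.33 and 0.018 in ZsG plus against ZsG minus mTEC, so that no direction is given for them there.

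Tbata and Kitl were each read by 4 probe sets, and the other 5 members by 1 each. For Tbata, 3 of the 4 had the order ZsG plus, ZsG minus mTEC, ZsG minus cTEC from low to high. Probe set 1425957_x_at averaged 7745, 21295 and 47079 in that order, and 1427130_x_at averaged 7363, 11658 and 34686. Probe sets with the ending _x_at hold probes that may also bind other transcripts. The fourth, 1429956_at, differed in pattern: its values were 4247, 1924 and 1035 on ZsG plus arrays, with 3758, 4925 and 4374 for ZsG minus mTEC and with 3626, 2429 and 3642 for ZsG minus cTEC, so that every ZsG minus mTEC array was above every ZsG minus cTEC array. Its difference in ZsG minus mTEC against ZsG minus cTEC was 0.45 ± 0.65 (adjusted p = 0.928 in the fit on all probe sets), opposite in sign to the -1.14 and -1.57 of the _x_at probe sets.

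For Kitl, all 4 probe sets were lower on average on ZsG plus arrays than in ZsG minus cTEC. Their differences were -2.21, -1.94, -1.53 and -1.64, and none passed in the fit on all probe sets (adjusted p 0.115 to 0.276). Against ZsG minus mTEC, 3 of the 4 had negative differences in ZsG plus, and 1426152_a_at had one of 0.17 ± 0.69. On 1415855_at replicate 2 of ZsG plus read 54.3, against 427 and 283 on the other ZsG plus arrays, while on the probe set used it read 614, between the others. The values 54.3 (replicate 2) and 283 (replicate 3) were below the highest PheX or DapX control of their array (341 and 307). On 1426152_a_at the ZsG plus arrays read 508, 839 and 353, all above that control, with replicate 2 on top. The probe sets of Kitl thus ordered the ZsG plus arrays differently, in part on readings within the control range.

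**Figure D3:**
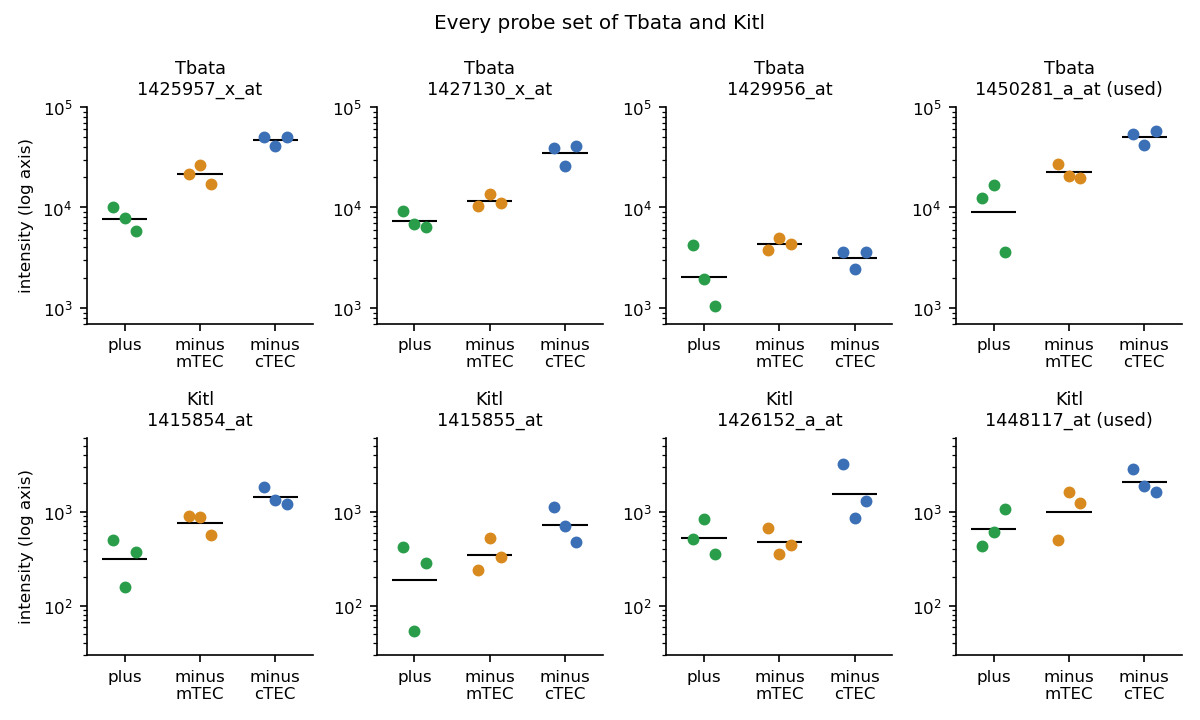
Intensity on each array (log axis) of the 4 probe sets of Tbata and the 4 of Kitl in ZsG plus, ZsG minus mTEC and ZsG minus cTEC; points are arrays in replicate order and bars geometric means. In 1429956_at of Tbata the ZsG minus mTEC arrays (3758 to 4925) lie above the ZsG minus cTEC arrays (2429 to 3642), unlike the other 3 probe sets of that gene.

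The other proteasome genes had no calls. Of the 6 catalytic beta subunits of the standard proteasome and the immunoproteasome (Psmb5 to Psmb10), 0 passed in any comparison, at background shares of 0.22% for ZsG plus versus ZsG minus mTEC, 1.74% for ZsG plus versus ZsG minus cTEC and 0.627% for ZsG minus mTEC against ZsG minus cTEC in either direction. Their median differences were -0.90, -0.46 and 0.42 in these comparisons, and 1, 0 and 0 of the 6 had an unadjusted p under 0.05. Over all genes, the shares at that limit were 10.2% lower and 3.2% higher, 11.3% and 7.44%, and 3.9% and 8.4%, in the same order. They are the background for such counts in every list below, where many counts are small. Psmb9, the beta1i subunit of the immunoproteasome, read 12679, 15854 and 20781 on ZsG plus arrays, with 10930, 11911 and 11746 for ZsG minus mTEC and with 20094, 28121 and 27080 for ZsG minus cTEC. Its difference from ZsG minus cTEC was -0.62 ± 0.50 in ZsG plus (adjusted p = 0.533) and -1.11 ± 0.50 in ZsG minus mTEC (adjusted p = 0.412).

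Psmb8, the beta5i subunit of the immunoproteasome that takes the same place in the ring as beta5t, averaged 8275 (ZsG plus), 12030 (ZsG minus mTEC) and 10530 (ZsG minus cTEC), with overlapping arrays. Psmb5, the standard beta5 subunit, which is named here as the counterpart of Psmb11 after its values were seen, averaged 855 (ZsG plus), 1563 (ZsG minus mTEC) and 822 (ZsG minus cTEC). Its difference in ZsG plus against ZsG minus cTEC was 0.06 ± 0.77 (adjusted p = 0.977). Of the 14 other subunits and activators listed, 13 were measured and 0 passed in any comparison, with medians of -0.61, -0.64 and 0.02 and with 1, 1 and 0 genes at an unadjusted p under 0.05. Whether Psmb11 differed between groups by more than these subunits was not tested.

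**Figure D4:**
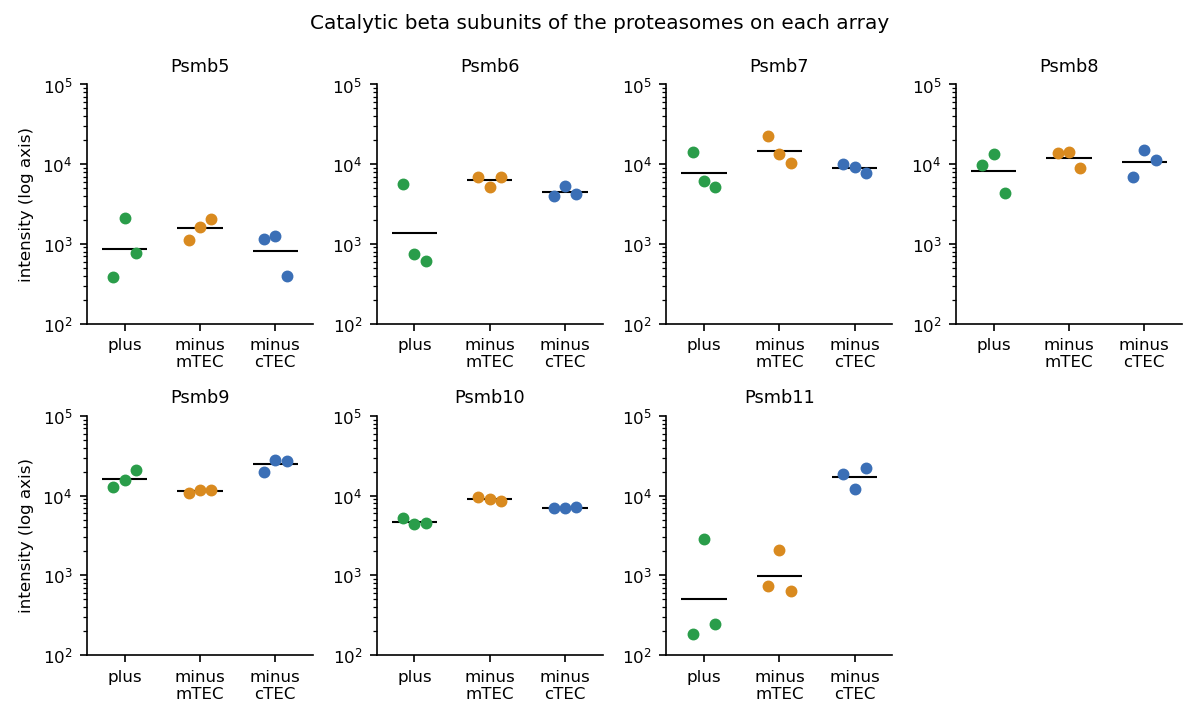
Intensity on each array (log axis) of the catalytic beta subunits Psmb5 to Psmb10 and of the thymoproteasome subunit Psmb11 in ZsG plus, ZsG minus mTEC and ZsG minus cTEC; points are arrays in replicate order and bars geometric means. Psmb11 averages 504, 994 and 17157 in the 3 groups, and Psmb9 averages 16105, 11521 and 24827.

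Prss16 acts beside the lysosomal machinery of the class II pathway, of which 8 of 9 listed genes were measured and 0 passed in any comparison. Ctsl, the cathepsin that processes the class II invariant chain in cortical epithelium, read 37160, 15310 and 5029 on ZsG plus arrays, with 23534, 25557 and 16232 for ZsG minus mTEC and with 73279, 98351 and 113762 for ZsG minus cTEC. Both other groups lay below ZsG minus cTEC without overlap, by -2.72 ± 0.74 in ZsG plus (adjusted p = 0.105) and -2.13 ± 0.74 in ZsG minus mTEC (adjusted p = 0.265). The Ctsl difference in ZsG plus was -3.42 without replicate 1 of that group, where it passed (adjusted p = 0.0346), and -1.97 without replicate 3. Cd74, the invariant chain itself, averaged 197736 (ZsG plus), 113628 (ZsG minus mTEC) and 87710 (ZsG minus cTEC), with a difference of 1.17 ± 0.49 in ZsG plus against ZsG minus cTEC (adjusted p = 0.239) that was 0.32 with repeated quantile normalization and 1.62 with each array centred on its median. The median of the 8 was -0.10 for ZsG plus against ZsG minus mTEC, -0.37 for ZsG plus against ZsG minus cTEC and -0.22 between the ZsG minus groups (mTEC against cTEC), and 1, 2 and 1 of the 8 had an unadjusted p under 0.05.

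The 6 listed genes of class II turnover, the process that Cd83 acts on, had 0 calls in any comparison, and 0, 1 and 0 of them had an unadjusted p under 0.05 in the same order of comparisons. H2-Ab1, a class II beta chain, averaged 114887 (ZsG plus), 64528 (ZsG minus mTEC) and 48632 (ZsG minus cTEC), and its difference in ZsG plus against ZsG minus cTEC was 1.24 ± 0.49 (adjusted p = 0.215), or 0.63 with repeated quantile normalization. A list of peptidases related to Enpep and Prss16 also held the receptors Mrc1, Mrc2 and Pla2r1. Of its 11 genes 10 were measured, 0 passed in any comparison, and 1, 4 and 2 had an unadjusted p under 0.05. Anpep, aminopeptidase N, averaged 4786 (ZsG plus), 2159 (ZsG minus mTEC) and 1268 (ZsG minus cTEC) with overlapping arrays, and Prcp, a lysosomal carboxypeptidase related to Prss16, averaged 1155, 4643 and 6519. The ZsG plus values of Prcp were 4161, 4445 and 83.3, so its low average there rested on replicate 3. That value was below the highest PheX or DapX control of its array.

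Listed beside Kitl were 14 genes, signals to thymocyte precursors together with the receptors Kit, Notch1, Il7r, Cxcr4 and Ccr9 of such precursors. Of these 14, 12 were measured, and 2 fell in ZsG plus against ZsG minus cTEC, where 6 had an unadjusted p under 0.05. In the remaining comparisons 0 passed, while 2 (ZsG plus against ZsG minus mTEC) and 4 (mTEC against cTEC) had an unadjusted p under 0.05. Dll1, a Notch ligand, averaged 340 in ZsG plus and 3914 in ZsG minus cTEC, a difference of -3.52 ± 0.55 (adjusted p = 0.0260). Its ZsG plus values were 336, 362 and 324, beside highest controls of 144, 341 and 307 on those arrays. Replicates 2 and 3 thus lay only just above the control range. Bmp4, a growth factor of the thymic stroma, averaged 8.01 in ZsG plus and 393 in ZsG minus cTEC (adjusted p = 0.0258), but all its ZsG plus values were below the highest control of their array, and floored at the controls the difference was -0.67 ± 0.66 (adjusted p = 0.544), so that call was lost. Without any single ZsG minus cTEC array both calls were lost (adjusted p up to 0.120 for Dll1 and 0.113 for Bmp4), and that of Dll1 was also lost without any single ZsG minus mTEC array (0.0525 to 0.0572), as was that of Bmp4 without ZsG minus mTEC replicate 1 (0.0525). The Dll1 difference was -3.77 to -3.07 over its 19 alternatives. The medians of the 12 were -0.79 for ZsG plus against ZsG minus mTEC, -1.19 for ZsG plus against ZsG minus cTEC and -1.19 between the ZsG minus groups (mTEC against cTEC).

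A list of 11 other genes of cortical epithelium shares genes such as Bmp4 and Ccl25 with the previous one. Of the 11, 2 fell in ZsG plus against ZsG minus cTEC (Pax1 and Bmp4) and 0 rose, while 6 had an unadjusted p under 0.05. In the remaining comparisons 0 passed, and 2 (ZsG plus against ZsG minus mTEC) and 5 (mTEC against cTEC) had an unadjusted p under 0.05. Pax1, a transcription factor of the pharyngeal pouches that form the thymus, averaged 186 in ZsG plus and 11617 in ZsG minus cTEC, a difference of -5.97 ± 0.67 (adjusted p = 0.00939), and without any single ZsG minus cTEC array its adjusted p was 0.0503 to 0.0560, so that call was lost. Of the Pax1 values of ZsG plus, 84.0 (replicate 1) and 198 (replicate 2) were below the highest control of their array, and 387 (replicate 3) was above it. Floored at the controls the difference was -5.45 (adjusted p = 0.000951), and averaged over all probe sets of the gene it was -3.91 (adjusted p = 0.0173). The epithelial keratin gene Krt18 averaged 96190 (ZsG plus), 61299 (ZsG minus mTEC) and 75991 (ZsG minus cTEC), and Ccl25, a chemokine of the cortex that draws in precursors, averaged 35925, 42001 and 80372. Neither passed in any comparison. The medians of the 11 were -0.20 for ZsG plus against ZsG minus mTEC, -0.80 for ZsG plus against ZsG minus cTEC and -0.92 between the ZsG minus groups (mTEC against cTEC).

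Markers of other cells moved with the groups. The summed intensity of 11 measured thymocyte markers, out of 12 listed, was 7145 to 9343 on ZsG plus arrays, 6300 to 10131 on ZsG minus mTEC arrays and 49221 to 64393 on ZsG minus cTEC arrays, and 11 of 11 differences from ZsG minus cTEC were negative for each of the other groups. Among them 2 fell in ZsG plus (Dntt and Cd8a) and 1 in ZsG minus mTEC (Cd8a). Cd8a fell in ZsG plus, at 434 against 7574 in ZsG minus cTEC (-4.13 ± 0.61, adjusted p = 0.0228), and in ZsG minus mTEC, at 714 (-3.41 ± 0.61, adjusted p = 0.0491). Of the 2 calls in ZsG plus, 1 (Cd8a) was kept without any single ZsG minus mTEC array and 0 without any single ZsG minus cTEC array. Without any single ZsG minus cTEC array neither Cd8a call held (adjusted p 0.0746 to 0.111 and 0.123 to 0.175), and the call in ZsG minus mTEC was also lost without ZsG plus replicate 1 (0.0515) or 2 (0.0530) and without any single ZsG minus mTEC array (0.142 to 0.166). Averaged over all its probe sets, Cd8a differed by -2.77 in ZsG plus (adjusted p = 0.0328) and by -2.29 in ZsG minus mTEC (adjusted p = 0.0723). The sum of 8 fibroblast markers was 4461 to 21963, 4859 to 7446 and 30572 to 42276 in the same order of groups, and 1 of the 8, the matrix gene Dcn, fell in each of the other groups against ZsG minus cTEC, calls that were lost without any single ZsG minus cTEC array. The call in ZsG plus was also lost without ZsG minus mTEC replicate 1 or 3, and that in ZsG minus mTEC without any single array of its own group. Thus the group with the highest values of the 7 members also had the highest sums of thymocyte and fibroblast markers, and their part in the members' results was not tested.

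The sum of 12 measured dendritic cell and macrophage markers, out of 13 listed, was 27586 to 90119 on ZsG plus arrays, 38376 to 51920 on ZsG minus mTEC arrays and 17115 to 54199 on ZsG minus cTEC arrays, which overlapped. Lyz2 was the brightest of the 12, at 35549, 34685 and 13538.5 on average in these groups, so the sums largely followed that gene. Flt3, a cytokine receptor of dendritic cells and early precursors, read 3023, 2606 and 4765 on ZsG plus arrays. These values lay above every ZsG minus mTEC array (113, 391 and 150). They were within the range of the ZsG minus cTEC arrays (1945 to 8317), while Cd83 in ZsG plus lay below its cTEC arrays. Flt3 fell in ZsG minus mTEC, at 188 against 3621 in ZsG minus cTEC (-4.27 ± 0.74, adjusted p = 0.0485), as Cd83 did, and it was the 1 call of this list. That call was lost without ZsG plus replicate 1 (adjusted p = 0.0523) or 2 (0.0530) and without any single ZsG minus mTEC or ZsG minus cTEC array (0.0943 to 0.176), while the difference was -4.80 to -3.67 over 19 alternatives. The sum of 7 measured B lineage markers, out of 8 listed, was 3440 to 9205, 1806 to 3369 and 1296 to 3359, and that of 6 endothelial markers was 1186 to 2120, 1233 to 1909 and 2158 to 2625, with 0 called in either list. At an unadjusted p under 0.05 there were 0, 2 and 1 B lineage genes and 0, 1 and 0 endothelial genes (ZsG plus against ZsG minus mTEC, ZsG plus against ZsG minus cTEC, mTEC against cTEC). No marker read 0 on any array, but neither did the PheX and DapX controls (lowest 3.77), so this does not show that such cells were present. The part of these cells in the values of Cd83 and Ly75 was not tested.

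Epithelial markers were read beside the titles as well. The members and lists were chosen with earlier results of these arrays known, and the sort markers are not stated. Ly75, a member, is itself widely used to sort cTEC. These values are therefore no independent check of the titles. The sum of 11 measured medullary markers, out of 12 listed, was 134010 to 178630 on ZsG plus arrays, 132070 to 148973 on ZsG minus mTEC arrays and 37243 to 54463 on ZsG minus cTEC arrays. Of these 11, 3 rose in ZsG plus against ZsG minus cTEC (Fezf2, Csn2 and Aire), 2 rose in ZsG minus mTEC against ZsG minus cTEC (Fezf2 and Aire), and 0 passed in ZsG plus against ZsG minus mTEC, where 0 had an unadjusted p under 0.05. Without any single ZsG minus mTEC or ZsG minus cTEC array 0 of these calls held. The sum of 6 general epithelial markers was 196906 to 315587, 155216 to 163051 and 99861 to 134005 in that order of groups, with 0 called in any comparison and 0, 3 and 3 at an unadjusted p under 0.05. Medullary markers thus summed higher in the group titled mTEC than in that titled cTEC. Each of the 7 members averaged higher in the group titled cTEC. Of the 11 other cortical genes, 9 were lower and 2 higher in ZsG minus mTEC than in ZsG minus cTEC. Among the 2 was the keratin gene Krt8, at 66080 (ZsG plus), 40619 (ZsG minus mTEC) and 18476 (ZsG minus cTEC). The sums of the 11 were 195635 to 303555, 163644 to 188864 and 291554 to 366228, so ZsG plus and ZsG minus cTEC overlapped.

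**Figure D5:**
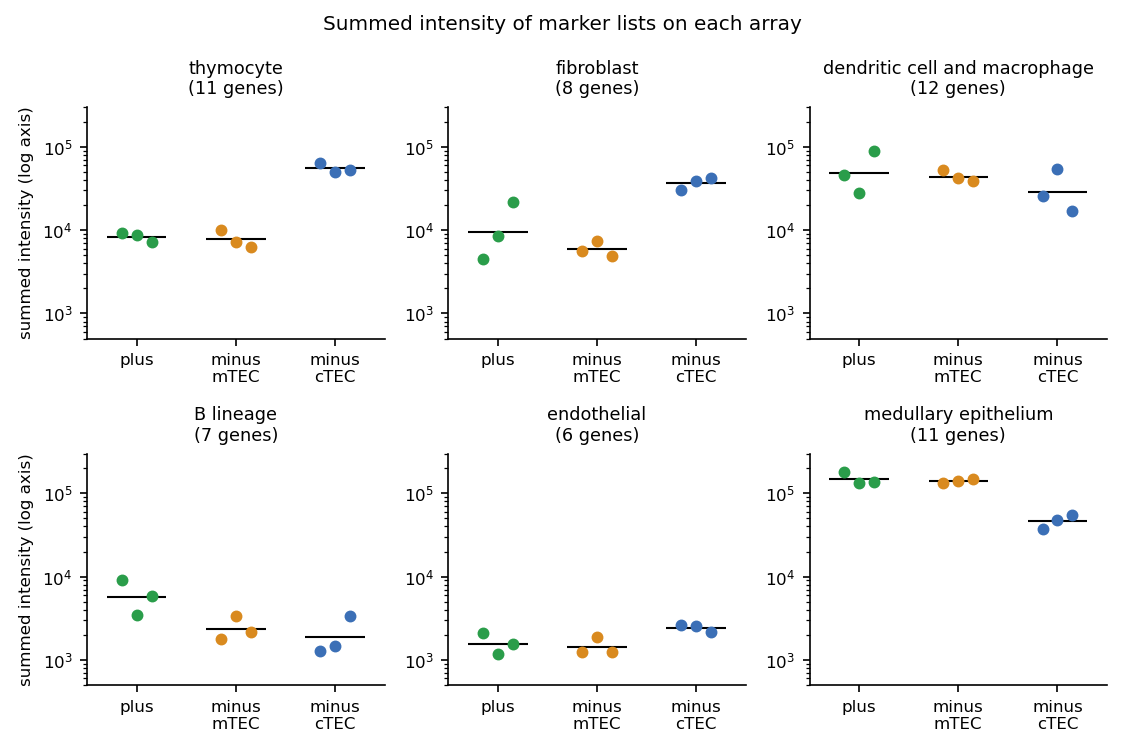
Summed intensity on each array (log axis) of markers of thymocytes, fibroblasts, dendritic cells and macrophages, B lineage cells, endothelial cells and medullary epithelium in ZsG plus, ZsG minus mTEC and ZsG minus cTEC; points are arrays in replicate order and bars geometric means. Thymocyte sums lie at 7145 to 9343, 6300 to 10131 and 49221 to 64393 in the 3 groups, and medullary sums at 134010 to 178630, 132070 to 148973 and 37243 to 54463.

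The members did not all vary alike over the 9 arrays. Pearson's r of log2 intensity was 0.933 for Psmb11 with Prss16, 0.934 for Enpep with Tbata and 0.908 for Prss16 with Tbata, but 0.471 for Ly75 with Tbata, 0.474 for Kitl with Tbata and 0.536 for Cd83 with Tbata. The arrays share their groups, which by themselves give such values, and no test was made. All ZsG plus values of Enpep were below the highest control of their array, so its r values rest in part on such readings. Among 10465 named genes above the 40th percentile of intensity, those most like Psmb11 were Frmd6 (r = 0.975), Osbpl9 (0.970) and Flrt2 (0.955). Those most like Prss16 were Diras2 (0.988), Ssbp2 (0.968) and Synm (0.964), and those most like Enpep were Prelp (0.990), Man2a2 (0.981) and Ppp2r1b (0.977). Diras2 was at 104 (ZsG plus), 288 (ZsG minus mTEC) and 5130 (ZsG minus cTEC), and Prelp was at 26.2, 343 and 2473.

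The gene most like Ly75 was Top2a (0.981), a topoisomerase of dividing cells, followed by Arpc2 (0.947) and Mgat3 (0.936). The gene most like Cd83 was Ptprc (0.984), the leukocyte antigen CD45, followed by Cd81 (0.966) and Anxa2 (0.945). Ptprc averaged 3890 (ZsG plus), 2402 (ZsG minus mTEC) and 13993 (ZsG minus cTEC), the same order of groups as Cd83. Tbata was most like Zbtb1 (0.990), Slc39a8 (0.983) and Zfp516 (0.983), and Kitl was most like Desi1 (0.951), Sepsecs (0.936) and Neurl2 (0.931).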

How the data were processed

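The authors deposited linear probe set intensity values of 9 arrays, 45101 probe sets each; the software behind them is not given in the sources used here. On every array the mean with 2% removed at each end was 1250. Per the labels' protocols, cDNA was amplified from 5 ng of column-purified, DNase-treated RNA (Ovation Pico). No detection calls were used, so the PheX and DapX controls serve as a background range, and precision is limited by the number of arrays.

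Intensities were taken to log2 here, with no offset. By the annotation table given, 34958 probe sets had 1 symbol, 932 several and 9211 none, and those with 1 symbol were tested, the brightest per gene. Comparisons used limma 3.58.1 (lmFit, eBayes; R 4.3.3), all 9 arrays in 1 fit without covariates, with 6 residual and 3.28 prior degrees of freedom, two-sided tests and Benjamini-Hochberg adjustment over 18194 genes. The steps were tested on simulated data. The members and the 14 lists (126 distinct genes, 118 measured) were chosen with earlier results of these data known. Named genes are all members, per list and comparison up to 3 called in each direction and the 2 brightest not called, and the 3 genes most like each member. No pair of arrays held identical values. Arrays with the same replicate number did not deviate together (r -0.015 to 0.013, against -0.022 to 0.011 for different numbers), so numbers were not taken as pairs. Figures were drawn with matplotlib 3.10.9. Alternatives were other normalizations, filters, probe set rules, offsets and fits, a replicate block, each array left out in turn and, added after seeing the data, values floored at the controls.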

Additional observations from a re-analysis of the deposited data

How the results depend on the processing

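Members called in ZsG plus against ZsG minus cTEC numbered 3 as reported, 5 with an offset of 50 or with floored values, and 0 in the fit on the 6 arrays compared; leaving out 1 array gave 0 to 3, and 0 without any single ZsG minus cTEC array. In ZsG minus mTEC against ZsG minus cTEC they numbered 2 as reported, 5 with array weights, 4 with floored values, 1 with median centring and 0 with all probe sets tested; leaving out 1 array gave 0 to 3. In ZsG plus against ZsG minus mTEC they numbered 0 as reported and in all alternatives except without ZsG plus replicate 2 (range 0 to 1). With replicate number as a block, 0 members passed in any comparison; Prss16 had an adjusted p of 0.0570 in ZsG plus against ZsG minus cTEC and 0.115 in ZsG minus mTEC against the same group, and the numbers do not pair the samples by the labels or the values. Reversed differences were those of Ly75 (0.33) and Kitl (0.018) with median centring, and of Ly75 without ZsG plus replicate 2 (0.21, with a range of -0.93 to 0.21 when 1 array was left out), all in ZsG plus against ZsG minus mTEC.

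Counts over all genes moved far more. In ZsG plus against ZsG minus mTEC the 40 calls became 0 with quantile normalization, the 6-array fit, array weights or the replicate block, 3 with median centring, 82 with all probe sets and 101 with the offset; leaving out 1 array gave 0 to 230. In ZsG plus against ZsG minus cTEC the 317 became 556 with the filter at the 40th percentile, 536 with all probe sets, 496 with mean probe sets, 660 with the offset, 636 with floored values, 0 in the 6-array fit, 37 with array weights and 16 with the replicate block; leaving out 1 array gave 0 to 735. In ZsG minus mTEC against ZsG minus cTEC the 114 became 48 with median centring, 191 with the filter, 43 with all probe sets, 216 with mean probe sets, 334 with the offset, 548 in the 6-array fit, 1220 with array weights, 599 with floored values and 0 with the replicate block; leaving out 1 array gave 0 to 304. The share of the calls on the high side in ZsG plus against ZsG minus cTEC was 49.3% with quantile normalization and 58.3% with median centring, against 34.4% as reported. The cause of these changes was not tested. Differences of the members kept their sign against ZsG minus cTEC in all 19 alternatives.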

Other observations

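Replicate 2 of ZsG plus had the highest Psmb11, Prss16, Enpep and Tbata values of its group. Cxcl12, a chemokine made by cortical epithelium and other stroma, showed the same array on top, and it was picked after its values were seen. It read 117, 11083 and 26.2 on ZsG plus arrays, with 949, 477 and 1138 for ZsG minus mTEC and with 21484, 14759 and 21441 for ZsG minus cTEC. Its ZsG plus values other than 11083 were below the highest PheX or DapX control of their array, so the group has no settled level and no difference is given. Ly75, Cd83 and Kitl had replicate 3 as their highest ZsG plus array, and Prss16, Enpep and Tbata had it as their lowest.

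Foxn1, the regulator of all thymic epithelium, read 2086, 1135 and 6377 on ZsG plus arrays, with 3517, 2554 and 2544 for ZsG minus mTEC and with 1792, 1254 and 1571 for ZsG minus cTEC. Its difference was 0.70 ± 0.69 in ZsG plus against ZsG minus cTEC (adjusted p = 0.617) and 0.90 ± 0.69 in ZsG minus mTEC against ZsG minus cTEC (adjusted p = 0.712), while the 7 members had negative differences there. Without ZsG plus replicate 3 the Foxn1 difference in ZsG plus was 0.015, and without replicate 2 it was 1.26. Foxn1 too was named after its values were seen.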
